A study of Caenorhabditis elegans with 6 samples.

Results

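The nuclear hormone receptor genes of Caenorhabditis elegans were compared between dopamine neurons and serotonin neurons. Members were all genes whose whole symbol is nhr followed by a number and which were selected on their level, reaching 10 normalized counts in 3 or more of the 6 libraries. This left 181 genes of the 269 with such a symbol, within 15750 genes of the deposited tables that passed the same floor. The 6 libraries came from a single strain, FQ939, labelled wild type, with embryos and larvae as the source. Dopamine neurons were measured in 3 libraries and serotonin neurons in 3, from polyadenylated RNA, with library construction from nanogram amounts of total RNA. The way the cells were marked and collected is not described in the labels. Since no label ties the replicates to separate cultures, the p-values rest on differences among these 6 libraries, which could be technical in origin.

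Nuclear hormone receptors are transcription factors that bind DNA through a zinc finger domain and, in many cases, a small lipophilic ligand through a second domain. Nematodes have expanded this family far beyond its size in insects or vertebrates, largely by duplication of a receptor related to HNF4, and a small set keeps clear counterparts in other animals. Members with known roles act in fat metabolism, detoxification, moulting, cell fate and entry into the dauer stage, often in the intestine or epidermis, and for most duplicated members no role has been described with certainty.

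Reads assigned to genes ranged from 20418663 to 31559049 per library. Ribosomal RNA genes took 43.9% of the reads of dopamine 1 and 44.99% of those of serotonin 3, and between 13.7% and 21.5% elsewhere. The labels were checked on the defining genes. The dopamine transporter gene dat-1 stood at 11060 to 23082 normalized counts in dopamine and 59.8 to 93.3 in serotonin libraries, and the tryptophan hydroxylase gene tph-1 at 17.98 to 157 and 3346 to 5782. Markers of pharyngeal muscle and part of those of body wall muscle differed as well. All 6 pharyngeal muscle markers were higher in serotonin libraries by limma, with a summed level of 37680 to 65878 against 872 to 4916 normalized counts, and the myosin gene myo-2 stood at 11891 to 28020 against 109 to 219. Summed pan-neuronal genes stood at 112862 to 173196 in dopamine and 62493 to 98563 in serotonin libraries. The 6 body wall muscle markers summed to 29069 to 49839 in dopamine and 17094 to 26056 in serotonin libraries, mostly through the myosin gene unc-54. Without unc-54 the other 5 summed to 3288 to 6545 in dopamine and 7081 to 9572 in serotonin libraries. The 8 intestine markers summed to 87.5 to 260 in dopamine and 83.5 to 341 in serotonin libraries. Of these, the gut esterase gene ges-1 and the gut GATA factor gene elt-2 reached at most 2.36 and 9.04. The genes vit-2 and vit-6 stood at 22.1 to 168 and 14.5 to 140, and 4 of the 8 markers were past the floor. The 8 epidermis markers summed to 1193 to 3205 in dopamine and 1380 to 1843 in serotonin libraries. Without a block for replicate number, no tested marker of intestine, epidermis, germline, glia or coelomocytes differed by limma at an adjusted p below 0.05. The part of the marker differences in the receptor results was not tested. In such bulk libraries fewer cells of a type and less RNA per cell cannot be told apart.

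A few receptor genes made up much of the family's RNA, and the leading ones were shared by both cell types. On the FPKM scale, which takes gene length into account, nhr-3 came first in both, at 178, 137 and 188 FPKM in dopamine libraries 1 to 3 and 147, 193 and 160 in serotonin libraries 1 to 3. Its groups overlapped and the means were alike, 168 ± 27.2 and 166 ± 23.6 FPKM (SD, n = 3). Next in dopamine neurons were nhr-45 at 93.4 ± 19.7, nhr-49 at 84.4 ± 13.1, nhr-67 at 65.8 ± 14.8, nhr-31 at 55.3 ± 13.6, nhr-84 at 53.9 ± 10.6, nhr-46 at 48.5 ± 9.32 and nhr-183 at 43.1 ± 12.5 FPKM. NHR-49 controls fatty acid oxidation and desaturation, NHR-67 is the counterpart of Tailless in cell fate control, and NHR-31 acts in growth of the excretory canal. In serotonin neurons nhr-3 was followed by nhr-49 at 133 ± 33.0, nhr-45 at 101 ± 23.1, nhr-237 at 71.6 ± 19.6, nhr-57 at 60.2 ± 18.999, nhr-84 at 56.5 ± 6.72, nhr-46 at 49.3 ± 11.4 and nhr-213 at 37.98 ± 9.06 FPKM. From nhr-67 downward in dopamine and from nhr-237 downward in serotonin neurons, each of these genes differed from the next by less than the larger SD of the pair. The step from nhr-3 to the next gene exceeded it in both cell types, in serotonin neurons only just (33.3 against an SD of 33.0 FPKM).

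**Figure D1:**
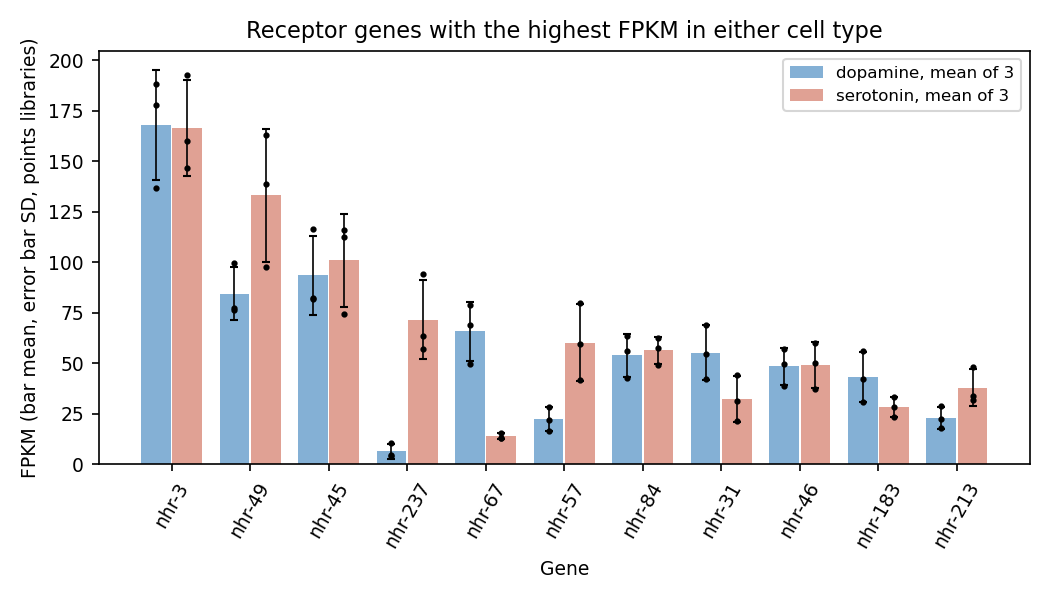
FPKM of the 11 receptor genes among the 8 highest of either cell type, with bars for the mean of 3 libraries, error bars for the SD and points for single libraries. Bars for nhr-3 are of similar height in both cell types, at 168 and 166 FPKM, while those for nhr-237 stand at 6.44 and 71.6 and those for nhr-67 at 65.8 and 13.9.

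Of these 8 leading genes, 5 were the same in both cell types, and the 8 held 40.1% of the summed mean FPKM of the members in dopamine and 35.4% in serotonin neurons. The lower part of the range differed more. The median member stood at 1.84 FPKM in dopamine and 4.44 FPKM in serotonin neurons, and 67 members averaged under 1 FPKM in dopamine against 20 in serotonin neurons. Means of 10 FPKM or more were found for 35 and 45 members. Across the 181 members, log2(mean FPKM + 1) correlated between the cell types with Pearson's r = 0.871 and Spearman's rho = 0.827, a description in which both axes share gene lengths and the authors' scaling.

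**Figure D2:**
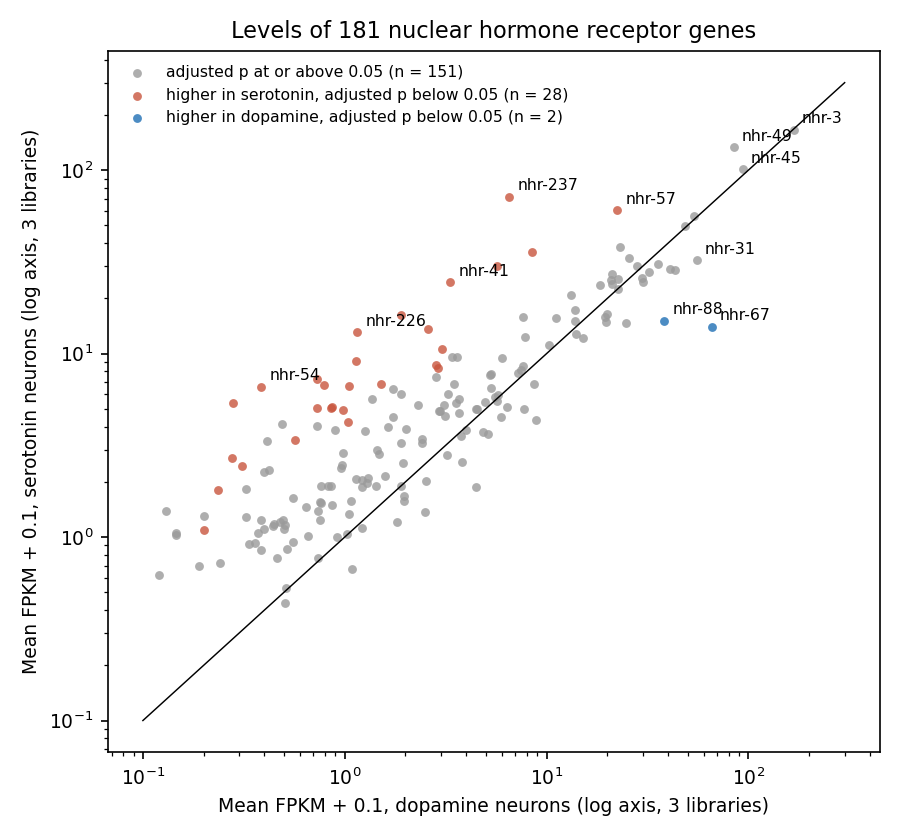
Mean FPKM plus 0.1 of the 181 members in dopamine neurons (horizontal, log axis) against serotonin neurons (vertical, log axis), with the line of equal levels. Coloured points mark the 28 genes higher in serotonin and the 2 higher in dopamine neurons at a limma adjusted p below 0.05, and points lie above the line for most genes of low level.

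Counted by library, the number of nhr genes at 10 or more normalized counts was 175, 142 and 134 in dopamine libraries 1 to 3 and 196, 191 and 182 in serotonin libraries 1 to 3. Dopamine 1, one of the libraries rich in ribosomal RNA, held the most of its group and still fewer than any serotonin library. The share of all genes at this level was not counted by library. Protein-coding genes with a mean under 50 normalized counts also lay lower in dopamine libraries, with a median log2 fold change of -0.78. The lower number is thus not shown to be particular to receptor genes. The members took 0.518%, 0.486% and 0.521% of the reads of protein-coding genes in dopamine libraries 1 to 3 and 0.622%, 0.667% and 0.584% in serotonin libraries 1 to 3, without overlap. Summed normalized counts of the members did overlap, at 57743, 56887 and 70140 against 62741, 78885 and 75363. Within a cell type, libraries correlated over the members at 0.840 to 0.869 in dopamine and 0.881 to 0.902 in serotonin neurons on the log2 scale.

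Between the cell types, 28 receptor genes were higher in serotonin neurons and 2 in dopamine neurons, by limma on log2(normalized count + 1) with a Benjamini-Hochberg adjusted p under 0.05 over all 15750 genes. These are 15.5% and 1.1% of the members, where 6.36% and 3.16% of all genes tested passed in the same directions, and 9.52% in either. The median log2 fold change, dopamine minus serotonin, was -0.87 over the members and -0.07 over all genes tested. The other 151 members did not pass. Dopamine and serotonin neurons stand here, and for single genes below, for the libraries so labelled. The serotonin libraries also held more RNA of pharyngeal muscle markers, and from which cells the receptor reads came was not tested. All 3 serotonin libraries lay above all 3 dopamine libraries for 66 members, and the opposite held for 3, whereas 15.1% and 12.3% of all genes tested were separated in these directions. The floor favours such differences. Of the 181 members, 117 reached 10 normalized counts in all 3 dopamine libraries and 165 in all 3 serotonin libraries. Any member short of this in a cell type needed libraries of the other to pass the floor. In 10 members no dopamine library reached it, so they could pass only through the serotonin libraries, and none passed only through dopamine. The separation of these 10 was fixed by the floor, and they are part of the 66. Of the 10, nhr-258 and nhr-167 were among the 28. Others of the 28, such as nhr-54, nhr-8 and nhr-135, reached the floor in a single dopamine library.

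The counts moved with the model and the scaling. With replicate number as a block, 48 members were higher in serotonin and 4 in dopamine neurons, where 11.7% and 6.78% of all genes passed. By edgeR on recovered reads the counts were 18 and 2 (4.75% and 2.64% of all genes), and by DESeq2 39 and 2 (8.44% and 4.55%). When libraries were scaled on pan-neuronal genes, 84 members passed toward serotonin and 1 toward dopamine neurons (19.1% and 1.08% of all genes). The median of all genes was then -0.94 and that of the members -1.74. This scaling divides all genes of a library by the same factor. The gap of -0.80 between members and all genes could therefore hardly change. All 30 calls were also made with the block and by DESeq2. By edgeR 10 of them were lost, those of nhr-8, nhr-11, nhr-51, nhr-76, nhr-112, nhr-124, nhr-135, nhr-173, nhr-239 and nhr-272. The count higher in serotonin neurons was 18, 17 and 17 without serotonin 1, 2 and 3, 22 without dopamine 3, and 18 without both libraries rich in ribosomal RNA. Toward dopamine neurons a single call was left without dopamine 3, serotonin 1 or serotonin 2.

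**Figure D3:**
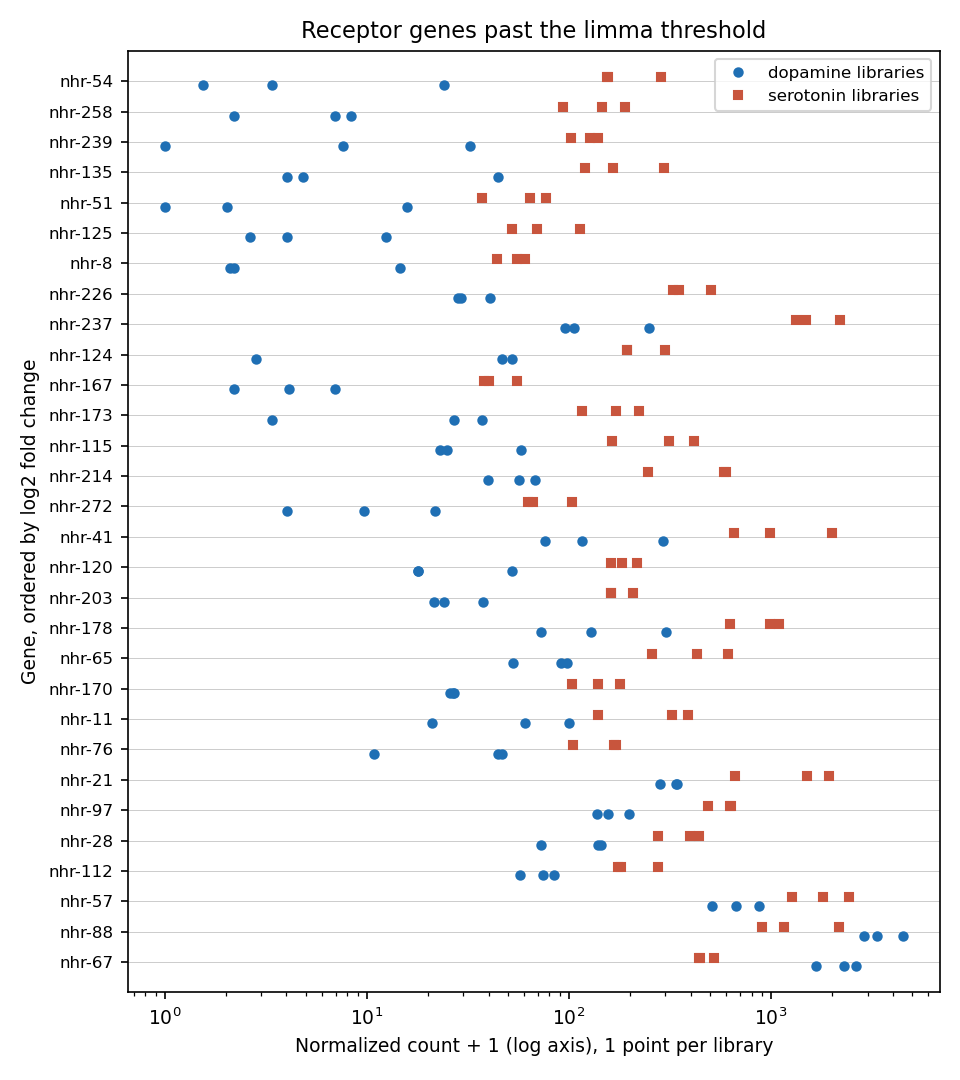
Normalized count plus 1 (horizontal, log axis) in each library for the 30 receptor genes that passed the limma threshold, ordered by log2 fold change, with circles for dopamine and squares for serotonin libraries. For all 30 genes the libraries of the groups do not overlap, and only nhr-88 and nhr-67, at the bottom, are higher in dopamine neurons.

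The dopamine side was led by nhr-67 (WBGene00003657, chromosome IV, 11169748 to 11174791), whose product, a relative of Tailless, acts in neuronal and uterine cell fate. It stood at 1660, 2305 and 2630 normalized counts in dopamine libraries 1 to 3 and 436, 442 and 519 in serotonin libraries 1 to 3. The lowest dopamine library was above the highest serotonin library by a wide margin, with a fold of 4.64 (log2 fold change 2.21, SE 0.27, limma adjusted p = 2.94e-04). Its rank by FPKM among the members was 4 in dopamine and 38 in serotonin neurons. Under pan-neuronal scaling the nhr-67 log2 fold change was 1.32, and the call held under all 20 alternatives tried (limma, edgeR or DESeq2 adjusted p up to 0.0121).

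The other gene higher in dopamine neurons was nhr-88 (chromosome II, 2976639 to 2987023). Its dopamine libraries 1 to 3 held 2881, 3332 and 4483 normalized counts and its serotonin libraries 897, 1158 and 2156. The groups were separated, with serotonin 3 nearest to dopamine 1 (fold 2.68, log2 fold change 1.42, SE 0.33, limma adjusted p = 0.0189). This nhr-88 call was lost without dopamine 3, serotonin 1 or serotonin 2 (limma adjusted p = 0.0577 to 0.0964) and when scaled to pan-neuronal genes (log2 fold change 0.52, limma adjusted p = 0.191) or ribosomal protein genes (limma adjusted p = 0.05496, with 1.23e-04 to 0.191 over all alternatives). With replicate number as a block, nhr-31 and the muscle development gene nhr-40 also passed toward dopamine neurons (limma adjusted p = 0.0368 and 0.0291, with 0.0368 to 0.850 and 0.0291 to 0.683 over all alternatives). Scaled to pan-neuronal genes, their log2 fold changes of 0.81 and 0.75 became -0.09 and -0.15.

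Among the genes higher in serotonin neurons, nhr-237 (WBGene00021610, chromosome V, 1625189 to 1626820) had the highest mean FPKM there, followed by nhr-57 at a distance of 11.4 FPKM, less than the SD of 19.6. It held 249, 105 and 94.7 normalized counts in dopamine libraries 1 to 3 and 1326, 2182 and 1481 in serotonin libraries 1 to 3. Every serotonin library was several times above the highest dopamine library, and the fold was 11.9 (log2 fold change -3.58, SE 0.39, limma adjusted p = 1.35e-04). Its rank by FPKM was 4 in serotonin and 45 in dopamine neurons. The gene nhr-226 (chromosome V, 2294877 to 2296977) stood at 39.6, 27.3 and 28.4 against 500.4, 326 and 349 normalized counts, with little spread in either group (fold 11.9, log2 fold change -3.58, SE 0.42, limma adjusted p = 2.40e-04). Both calls held under all 20 alternatives.

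Larger folds belonged to genes nearly absent from dopamine libraries. The gene nhr-54 (WBGene00003644, chromosome V, 16503944 to 16505928) held 22.9, 0.54 and 2.41 normalized counts in dopamine libraries 1 to 3 and 154, 152 and 284 in serotonin libraries 1 to 3. Dopamine 1 stood apart from its group, and 0.54 corresponds to a single read, so the fold of 37.8 has little precision (log2 fold change -5.24, SE 0.94, limma adjusted p = 0.00423). Next, nhr-258 (chromosome IV, 8044938 to 8047493) stood at 7.30, 5.99 and 1.21 against 92.0, 144 and 188 (log2 fold change -4.76, SE 0.77, limma adjusted p = 0.00205). All its dopamine values were under the floor and all its serotonin values far above it. It was a member only through its serotonin libraries, so the order of its groups was set by the selection. The gene nhr-135 (chromosome V) stood at 43.8, 3.81 and 3.02 against 296, 119 and 165, again highest among dopamine libraries in dopamine 1 (log2 fold change -4.24, SE 0.89, limma adjusted p = 0.0104). By edgeR the nhr-135 call was lost (adjusted p = 0.0594, with 3.70e-04 to 0.0594 over all alternatives).

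Dopamine 1 was the highest dopamine library for 14 of the 28 genes higher in serotonin neurons, dopamine 2 for 8 and dopamine 3 for 6. This order was not counted over all genes or over the other members. In dopamine 1 tph-1 was at 157 normalized counts, against 17.98 and 19.9 in dopamine 2 and 3. A link of tph-1 to the receptor values was not tested. The part of dopamine 1 in these results was measured by leaving it out, which gave 32 genes higher in serotonin neurons and a member median of -1.02.

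Further genes of intermediate level rose in serotonin libraries. The gene nhr-41 (WBGene00022423, chromosome IV, 1386215 to 1399353), counterpart of the insect receptor DHR78 and of vertebrate testicular receptors, stood at 75.04, 116 and 291 normalized counts in dopamine and 656, 981 and 1999 in serotonin libraries 1 to 3. In both groups library 3 was the highest, and the groups stayed apart (fold 7.93, log2 fold change -2.99, SE 0.52, limma adjusted p = 0.00322). Both nhr-178 and nhr-21 also reached high levels in serotonin libraries, 628 to 1093 and 664 to 1925 normalized counts, against 71.8 to 301 and 280 to 343 in dopamine libraries. Their folds were 6.21 and 3.89 (limma adjusted p = 0.00407 and 0.00621). The gene nhr-97 stood at 484 to 631 against 137 to 197 normalized counts, a fold of 3.55 (limma adjusted p = 0.00311). The genes nhr-214, nhr-115, nhr-120, nhr-203 and nhr-65 were 8.31-, 8.64-, 7.26-, 6.52- and 5.23-fold higher, with limma adjusted p-values of 0.00117 to 0.00703. Of these, nhr-178, nhr-21, nhr-97, nhr-214, nhr-120, nhr-203 and nhr-65 were named after their values were seen, because they passed. Calls of nhr-41, nhr-178, nhr-97, nhr-214, nhr-120 and nhr-203 held under all 20 alternatives, and those of nhr-115, nhr-21 and nhr-65 were lost only without both libraries rich in ribosomal RNA (limma adjusted p = 0.0601, 0.0671 and 0.0537, lowest over the alternatives 2.75e-07, 3.47e-06 and 2.16e-06). In all, 11 of the 30 calls held under every alternative and 15 under every omission of a single library.

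The other 14 calls toward serotonin neurons were each lost on leaving out at least 1 library, always with the same sign and often with a fold of similar size. When the call was lost, the smallest log2 fold change was -4.18 for nhr-239 (-4.28 with all libraries), -3.22 for nhr-173 (-3.44) and -1.74 for nhr-11 (-2.37). The hypoxia-induced gene nhr-57 (chromosome V, 4131889 to 4135102) was the most abundant of them, at 873, 665 and 508 normalized counts in dopamine and 2433, 1814 and 1273 in serotonin libraries 1 to 3. Libraries of the same number ranked alike in both groups (fold 2.67, limma adjusted p = 0.0143). Leaving out dopamine 3 or serotonin 1 ended the nhr-57 call (limma adjusted p = 0.0607 to 0.0719, lowest over the alternatives 2.02e-04). The gene nhr-8, a relative of the vitamin D receptor with roles in cholesterol balance and toxin resistance, held 13.6, 1.09 and 1.21 against 59.4, 53.99 and 42.97 normalized counts. Its call (log2 fold change -3.69, limma adjusted p = 0.0352) was lost on leaving out any library but dopamine 1 (limma adjusted p = 0.0610 to 0.154, with 0.00937 to 0.154 over all alternatives). The genes nhr-239 and nhr-51 had 1 dopamine library each at 0 and log2 fold changes of -4.28 and -4.16. The nhr-239 call was lost without dopamine 3 or any serotonin library and that of nhr-51 without dopamine 1 or 3 or any serotonin library (limma adjusted p = 0.0559 to 0.102 and 0.0626 to 0.149, highest over the alternatives 0.139 and 0.179).

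The calls of nhr-170, nhr-173, nhr-124, nhr-28 and nhr-125 were lost under 2 or 3 of the 6 single omissions. The nhr-170 and nhr-173 calls (log2 fold changes -2.38 and -3.44) were lost without serotonin 2 or 3, at limma adjusted p-values of up to 0.0867 and 0.101. The nhr-125 call (-3.87) was lost without serotonin 1 or 3, up to 0.0943, and 12.7% of its exonic sequence overlaps another gene on its strand. The nhr-124 call (-3.55) was lost without any 1 serotonin library, up to 0.103. The nhr-28 call (-1.68) was lost without dopamine 1 or serotonin 2 or 3, up to 0.0834, or 0.127 over all alternatives. Dopamine libraries of nhr-170 agreed closely, at 26.1, 25.6 and 24.7 normalized counts, whereas those of nhr-124 ranged from 1.81 to 51.2.

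The remaining 5 calls, nhr-11, nhr-167, nhr-272, nhr-112 and nhr-76, had log2 fold changes of -2.37, -3.46, -2.99, -1.53 and -2.35 and limma adjusted p-values of 0.0310 to 0.0403. The nhr-11 call was lost without dopamine 1 or 3 or serotonin 1 or 2, and those of nhr-167 and nhr-272 without dopamine 3 or any serotonin library (limma adjusted p up to 0.113, 0.144 and 0.145). The nhr-112 call was lost without dopamine 2 or 3 or any serotonin library, and that of nhr-76 without dopamine 2 or any serotonin library (limma adjusted p up to 0.202 and 0.136). These 5 and nhr-170 and nhr-28 were named after their values were seen. Exons of nhr-28 and nhr-51 overlap a gene on the other strand over 7.75% and 7.84% of their length, and since the strandedness of the counts is not given, reads there cannot be assigned to 1 strand.

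Grouped by known role, the receptors with counterparts across animals were all past the floor, 11 genes, and held calls in both directions. In this group nhr-67 was higher in dopamine neurons, nhr-41 and nhr-8 were higher in serotonin neurons, and 8 did not pass, with a median log2 fold change of -0.71. The DAF-12 relative nhr-48 stood at 431, 617 and 405 normalized counts in dopamine and 857, 1359 and 781 in serotonin libraries 1 to 3. Its groups did not overlap, but its adjusted p was above 0.05 (log2 fold change -1.02, limma adjusted p = 0.0625, with 0.00534 to 0.260 over all alternatives), and it passed with the replicate block (0.00534). The gene nhr-111 also passed with the block (13.6, 16.9 and 9.05 against 117, 101 and 28.2 normalized counts, limma adjusted p = 0.0705 without and 0.0237 with it, with 0.00498 to 0.291 over all alternatives). The germ cell nuclear factor relative nhr-91 stood at 866 ± 413 and 1048 ± 351 normalized counts, the HNF4 relative nhr-64 at 58.6 ± 43.7 and 84.0 ± 41.8, and the NR4A relative nhr-6 at 266 ± 109 and 188 ± 29.8 in dopamine and serotonin neurons.

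**Figure D4:**
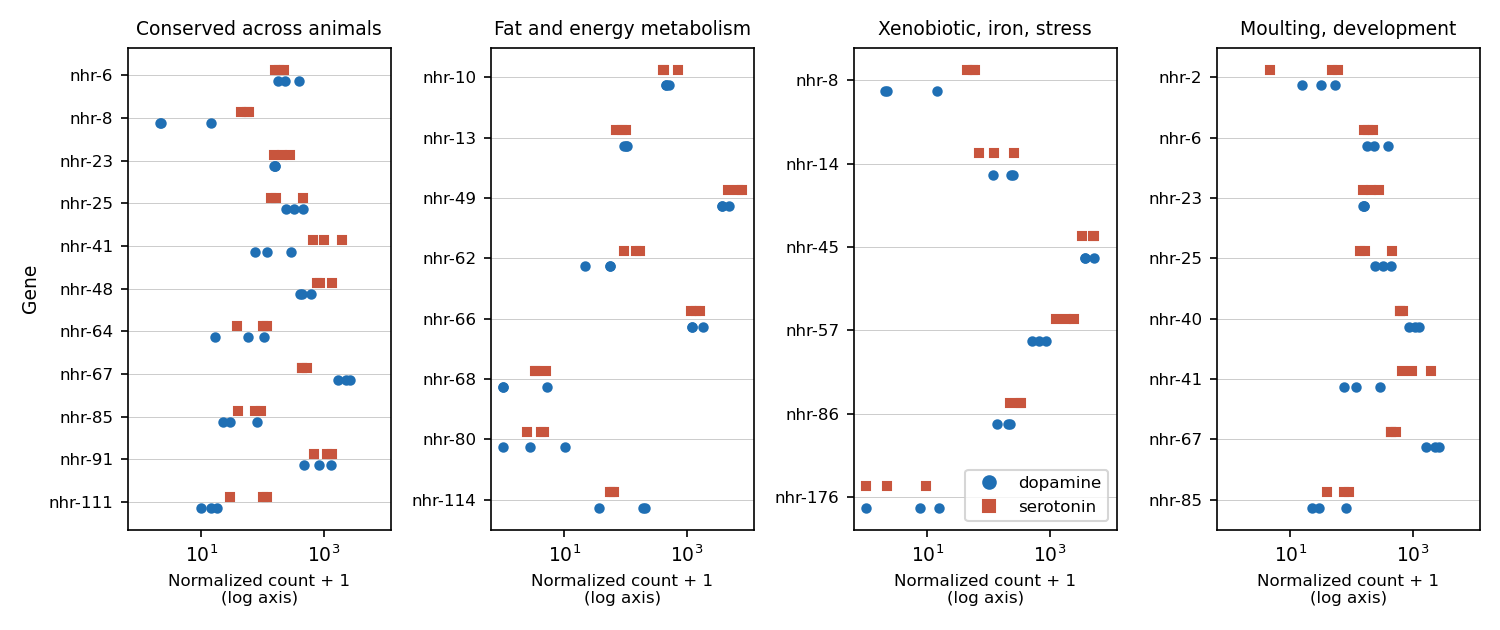
Normalized count plus 1 (horizontal, log axis) in each library for the receptor genes of 4 role groups, with circles for dopamine and squares for serotonin libraries. The groups overlap for most genes, nhr-67 and nhr-40 lie higher in dopamine libraries, and nhr-8, nhr-41, nhr-48, nhr-57, nhr-62 and nhr-111 lie higher in serotonin libraries.

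Receptors of moulting and development were measured for all 8 genes of the list, with nhr-67 higher in dopamine and nhr-41 in serotonin neurons (median log2 fold change 0.38). The moulting regulator nhr-23 stood at 156 ± 3.61 and 213 ± 61.0 normalized counts, the SF-1 relative nhr-25, which acts in the epidermis, at 335 ± 105 and 252 ± 177, and the E75 relative nhr-85 at 43.1 ± 31.5 and 68.1 ± 27.3, and none of these 3 passed. The gene nhr-40 stood at 858, 1095 and 1275 in dopamine and 606, 608 and 689 in serotonin libraries 1 to 3. Its groups were separated, yet its adjusted p was above 0.05 (log2 fold change 0.75, limma adjusted p = 0.112). The early embryonic gene nhr-2 stood at 32.9 ± 19.4 and 36.7 ± 29.2.

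In the fat and energy group, 6 of 8 genes were past the floor and none passed the limma threshold (median log2 fold change -0.04). The gene nhr-49 (chromosome I, 9869651 to 9874680) stood at 3714, 4784 and 3676 normalized counts in dopamine and 4688, 7828 and 6671 in serotonin libraries 1 to 3. Serotonin 1 fell just below dopamine 2, so the groups overlapped (log2 fold change -0.64, SE 0.25, limma adjusted p = 0.160), and with the replicate block the gene passed toward serotonin neurons (limma adjusted p = 0.0163, with 0.0130 to 0.459 over all alternatives). The diet-restriction gene nhr-62 did so too (43.4 ± 19.8 against 137 ± 38.8 normalized counts, limma adjusted p = 0.0767, and 0.0218 with the block, with 0.0218 to 0.257 over all alternatives). Of the NHR-49 partners, nhr-66 stood at 1411 ± 363 and 1405 ± 222 normalized counts and nhr-13 at 98.3 ± 5.86 and 85.1 ± 16.1, while nhr-80 was below the floor with at most 9.38. The propionate shunt regulator nhr-10 stood at 475 ± 36.6 and 513 ± 168, and its co-regulator nhr-68 reached at most 4.17 in any library. The vitamin B12-related gene nhr-114 stood at 208, 35.4 and 190 in dopamine libraries 1 to 3 and 59.4, 54.5 and 62.6 in serotonin libraries, so that dopamine 2 lay below all the others.

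Among receptors of toxin, iron and stress responses, nhr-8 and nhr-57 were higher in serotonin neurons and 3 of 5 tested did not pass (median log2 fold change -0.66). The immune regulator nhr-86 stood at 187 ± 46.1 and 295 ± 65.0 normalized counts, the iron-linked gene nhr-14 at 197 ± 68.5 and 151 ± 98.7, and nhr-45 at 4202 ± 888 and 4535 ± 1038. The gene nhr-176, which acts on detoxification of thiabendazole, was below the floor.

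Nuclear receptors with other names and the receptors' partners did not pass in the unblocked fit of all 6 libraries at the deposited scaling. The dafachronic acid receptor gene daf-12 stood at 2342, 2395 and 2479 normalized counts in dopamine and 2602, 2305 and 3742 in serotonin libraries 1 to 3, which overlapped (log2 fold change -0.23, limma adjusted p = 0.635, with 0.0105 to 0.990 over all alternatives). The motor neuron gene unc-55 stood at 61.5, 0.54 and 1.81 against 72.7, 58.0 and 49.1, so dopamine 1 lay with the serotonin libraries (limma adjusted p = 0.136, with 0.00758 to 0.595 over the alternatives). Without dopamine 1 unc-55 passed toward serotonin neurons (log2 fold change -4.85, limma adjusted p = 0.00758), and with the replicate block it did so too (0.0306). The coregulator genes cbp-1, din-1, gei-8 and mdt-15 were abundant in all libraries, at 2878 to 15056 normalized counts, with log2 fold changes of -0.05 to 0.19. Under pan-neuronal scaling, where the median of all genes was -0.94, daf-12 (-1.13), din-1 (-0.94), mdt-15 (-0.92) and cbp-1 (-0.75) passed toward serotonin neurons (limma adjusted p = 0.0105, 0.0402, 0.0142 and 0.0404, up to 0.990 for daf-12, 0.976 for din-1 and 0.989 for mdt-15 and cbp-1 over all alternatives). Of the dafachronic acid and sterol transport genes, ncr-1, a counterpart of NPC1, stood at 2660 to 5212 and 2547 to 3396, while daf-9 and daf-36, enzymes of dafachronic acid synthesis, stayed under 20 normalized counts in dopamine libraries. With the block, daf-9, daf-36, dhs-16 and ncr-2 passed toward serotonin neurons (limma adjusted p = 0.0460, 0.0180, 0.0216 and 0.0301, highest over the alternatives 0.510, 0.292, 0.473 and 0.703), and without dopamine 1 so did daf-9, daf-36 and ncr-2 (0.0467, 0.0137 and 0.0215). In the unblocked fit of all 6 libraries none of the 5 tested passed, although daf-36 did under pan-neuronal scaling (0.0203). Of the fatty acid genes controlled by NHR-49 and NHR-80, fat-6 stood at 7.37 to 27.1 and fat-7 at 0 to 11 normalized counts. The gene fmo-2 stood at 1.23 to 29.5, acs-2 at 0.6 to 78.2 and fat-5 at 0 to 203, highest in serotonin 2. Of 4 tested none passed without the block, and fat-5 did with it (limma adjusted p = 0.0406). Of the 5 propionate shunt genes none passed in either fit, and alh-8 had the highest level, at 1171 to 3199.

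**Figure D5:**
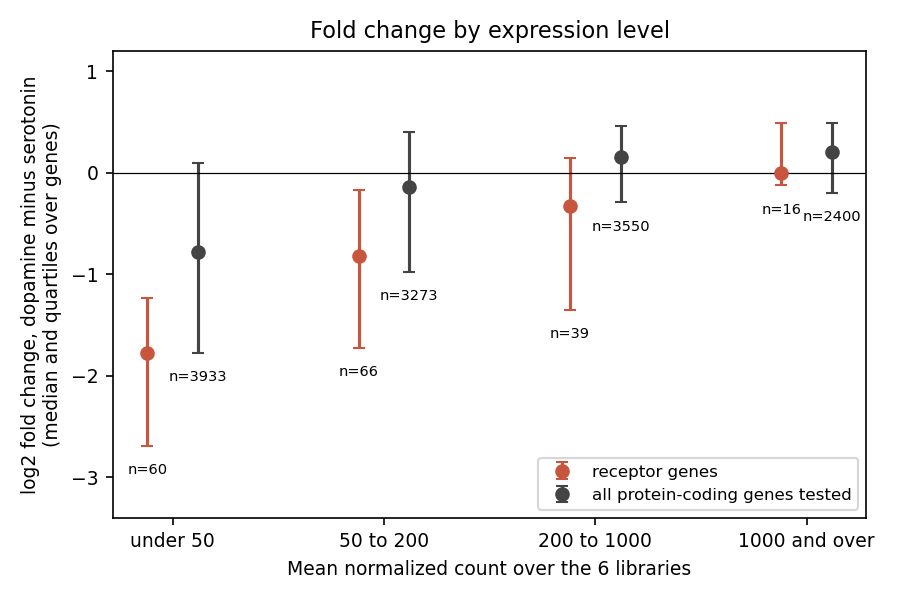
Median and quartiles of the log2 fold change, dopamine minus serotonin, for receptor genes and for all protein-coding genes tested, in 4 ranges of the mean normalized count over the 6 libraries. The median of the receptor genes is below that of the protein-coding genes in each range, from -1.77 against -0.78 at the lowest level to -0.002 against 0.20 at the highest, where the quartiles largely coincide.

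The difference depended on level. Receptor genes with a mean under 50 normalized counts over the 6 libraries had a median log2 fold change of -1.77 (60 genes), where all protein-coding genes of that level had -0.78 (3933 genes). From 50 to 200 the medians were -0.82 (66 receptor genes) and -0.14, from 200 to 1000 they were -0.33 (39) and 0.16, and from 1000 upward -0.002 (16) and 0.20. Protein-coding genes of low level thus also lay lower in dopamine libraries, and the receptor medians lay below theirs. From 1000 upward the quartiles were alike, at -0.13 and 0.49 for receptor and -0.20 and 0.49 for protein-coding genes. Negative log2 fold changes made up 50% of receptor and 34.5% of protein-coding genes there. No spread was measured for the median of these 16 receptor genes. Below 50, 8.33% of receptor genes were higher in serotonin neurons against 2.42% of protein-coding genes, and from 50 to 200 the shares were 19.7% and 8.46%. In the range from 200 to 1000, 9 of 39 receptor genes were higher in serotonin neurons (23.1%) against 9.66% of protein-coding genes, and none was higher in dopamine neurons. At 1000 and above, 2 of 16 were higher in dopamine (12.5%) and 1 in serotonin neurons (6.25%), near the 8.71% and 9.63% of protein-coding genes. These medians cover only genes past the floor.

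By position, most members lay on chromosome V, which held 167 of the 269 genes in the WBcel235 annotation, 110 of them past the floor. On the X chromosome 22 of 23 nhr genes were past the floor, on chromosome IV 27 of 33, and on chromosome I 11 of 23. None of the 11 members on chromosome I passed the test, where 16.6% of all members did. Higher in serotonin neurons were 14 of the 110 members on chromosome V, 6 of the 27 on IV and 6 of the 22 on X. On chromosomes II and III it was 1 of 7 and 1 of 4. The share of all genes that passed on each chromosome was not counted. The median log2 fold change was -1.24 for members on chromosome V and -0.58 for those on X.

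Several of the 28 were neighbours. The genes nhr-115 and nhr-226 lie 0.076 kb apart on chromosome V (2292540 to 2296977), nhr-272 and nhr-214 lie 1.3 kb apart on X, and nhr-120 and nhr-173 (14.9 kb, X), nhr-178 and nhr-237 (17.2 kb, V) and nhr-65 and nhr-170 (38.5 kb, V) are within 50 kb of each other. These 5 pairs were sought among the 30 genes that passed, 28 of them higher in serotonin neurons. Their shared direction therefore carries little information. Close spacing is common in the family: 65.2% of the 181 members have another nhr gene within 50 kb, as do 56.7% of the 30 that passed. Near neighbours are often recent duplicates, and how reads shared by such copies were counted is not stated, so values of close duplicates are uncertain.

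At the floor itself, the last members inside were nhr-140, nhr-92 and nhr-197, with a third-highest value of 10.6, 11.4 and 11.8 normalized counts. Just outside were nhr-148, nhr-77 and nhr-152, at 9.83, 9.82 and 9.65. The 88 nhr genes outside included 35 at 0 in 3 or more libraries, and in none of them were all 6 libraries at 0.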

How the data were processed

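The deposited tables hold, for each gene, a normalized count signal that the authors scaled by a single factor for each library, as the values show, and FPKM, which adds gene length. STAR, HTSeq and DESeq2 are named in the submitters' processing notes without versions or roles. Genome build and strandedness were not stated in the sources used here. In every library all values up to 10000 reads were whole multiples (100% within 0.02) of 1 step, worth 0.393 to 1.23, and division by it recovered reads. On recovered reads edgeR called 1164 genes and DESeq2 2045. Symbols came from the WBcel235 annotation (Ensembl release 115), which held all 269 nhr genes.

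Genes with at least 10 normalized counts in at least 3 libraries were tested as log2(value + 1) with limma 3.58.1 (trend, robust) in R 4.3.3, adjusted by Benjamini and Hochberg over 15750 genes at 0.05. A fold change on this scale understates that of low genes. The pipeline was tested on simulated data with a single dispersion for all genes, in which only genes with a mean over 50 were changed. Recovery of changes in genes of lower level was not tested. Same-numbered dopamine and serotonin libraries deviated together from their group means (correlations 0.433, 0.173 and 0.280, against -0.296 to 0.013 for other pairs). The number may thus pair libraries, although this was read from these same data. The main fit left it out, and blocked values are given for part of the calls that the block added. Members, lists and settings were chosen with earlier results of these data known. Named were up to 12 genes per direction with the largest fold among separated calls with a mean of at least 50, the 8 highest by FPKM per cell type, the role lists and the 3 genes on either side of the floor. The smallest counts rest on single reads. The alternatives included pseudocounts 0.5 and 8, no filter, a filter of 50, 4 scalings, FPKM, edgeR 4.0.16 and DESeq2 1.42.0. Further alternatives were the block, omission of libraries, and a term that marked dopamine 1 and serotonin 3 as rich in ribosomal RNA.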

Additional observations from a re-analysis of the deposited data

How the results depend on the processing

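None of the 30 receptor genes called changed sign in any alternative that fitted it; the filter of 50 left out nhr-8, nhr-51 and nhr-167. The count of receptor genes higher in serotonin neurons (28) became 84 with pan-neuronal scaling, 18 by edgeR, 48 with the replicate block and 18 without dopamine 1 and serotonin 3, and ranged from 17 to 32 when 1 library was left out. That higher in dopamine neurons (2) became 1 with pan-neuronal or ribosomal protein scaling and 4 with the block, and ranged from 1 to 3 with 1 library left out. The median log2 fold change (-0.87) became -0.59 with a filter of 50, which keeps 124 members, -0.62 after quantile normalization, -1.74 with pan-neuronal scaling and -0.52 on the FPKM scale, where the added 1 shrinks low genes. Over all genes, 498 higher in dopamine and 1002 in serotonin neurons became 170 and 3002 with pan-neuronal scaling and 1068 and 1842 with the block. The former was 299 with ribosomal protein scaling and 294 without dopamine 1 and serotonin 3. With 1 library left out they ranged from 224 to 455 and from 581 to 1289. Scaled to pan-neuronal genes, nhr-3 and cbp-1 turned from 0.01 and 0.15 to -0.89 and -0.75 and passed (limma adjusted p = 0.0428 and 0.0404). Signs of 33 members changed there, and of at most 15 elsewhere. For the other changes the cause was not tested. Depth limits genes of a few reads per library, as 1 read is worth up to 1.23 normalized counts.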
